A study of Rattus norvegicus with 64 samples.

Results

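The 150 gene IDs described here were those whose expression differed most from rat to rat among the control (CTL) dorsal hippocampi. They were selected by their variance in 16 CTL rats, with male and female means removed, from the 11013 IDs with a mean of at least 5 CPM, out of 32623 IDs counted. CPM is the count of a gene scaled to a common total of gene counts in every rat. RNA-Seq was made from tissue punches of 2 brain regions, dorsal hippocampus (HPCd) and nucleus accumbens (ACB), in 32 rats of the Sprague Dawley stock. Each sex had 8 CTL and 8 ACE-K rats. CTL rats received water and ACE-K rats drank acesulfame potassium (ACE-K) at about 15 mg/kg in a 0.1% (w/v) solution every day from postnatal day 26, beside chow and water, and all brains were collected at postnatal day 80. Estrus phase was not tracked in the females, and each punch was a piece of tissue and not a sorted population. The tables pair no ID with a gene symbol, so that roles of single genes, marker lists and the label of the tissue itself could not be checked here, and IDs are given as deposited.

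The dorsal hippocampus is a part of the hippocampus that serves spatial and episodic memory, and the nucleus accumbens is a part of the ventral striatum that serves reward. Acesulfame potassium is a low-calorie sweetener that binds the sweet taste receptor. A bulk punch measures the RNA of every cell in it together, so that for all values below a different number of cells of one type and a different amount of RNA per cell cannot be told apart. Genes with a shared source of variation rise and fall together over animals, which is why covariation was described before any treatment effect.

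Counts on genes lay between 14304052 and 28292936 per rat in the HPCd and between 255545 and 416869 in the ACB. The study gives the same approximate number of reads for every sample. The reason for the low deposited ACB counts is not given in the sources used here. HTSeq placed 20.3% to 24.3% of the HPCd reads on no gene. The column names of the HPCd carry a library number from 1 to 32, whose meaning was not given in the sources used here, and its mean was 16.5 in each of the 4 groups. The study left out an ACB sample of an ACE-K rat after a principal component analysis, without naming it in the sources used here. All 32 ACB samples were kept here. Rat C106 stood apart from the other ACB samples in set 3, and the ACB correlations and male ACB tests of that set are given with and without it.

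The variable IDs had a median SD of 0.70 on the log2(CPM + 0.5) scale among CTL rats, against 0.11 over the 11013 IDs. At the limit of the list, the SD was 0.53 for the last 3 IDs inside and 0.53, 0.53 and 0.52 for the first 3 outside, so that the boundary was not a gap. Their mean in CTL rats reached up to 901 CPM, with a median of 11.9 CPM below the median of 34.4 CPM over the 11013 IDs, and 67 of the 150 had less than 10 CPM. Counting error made up a median of 2.33% and at most 14.6% of the variance of a variable ID, and the rest lay between libraries. Together they held between 0.213% (C99) and 1.62% (C101) of a CTL rat's gene counts. In a principal component analysis of the 150 IDs over the 16 CTL rats, the first component held 80.1% of their variance.

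Clustered by their correlation over CTL rats, 139 of the 150 IDs fell into 3 sets. Set 1 held 87 IDs, set 2 held 40 and set 3 held 12, and 11 IDs stood in no set. The mean pairwise correlation over the 16 CTL rats, which were used to form the sets, was 0.855 in set 1, 0.735 in set 2 and 0.895 in set 3. Over the 16 ACE-K rats, which neither the choice of the IDs nor the sets used, it was 0.755, 0.647 and 0.884. The mean over all pairs of the 11013 IDs was 0.019 in CTL and 0.035 in ACE-K rats. In ACE-K rats 99.1% of the 3741 pairs of set 1, 97.3% of the 780 pairs of set 2 and all 66 pairs of set 3 were positively correlated. All these correlations share libraries and depth between IDs and are given as a description.

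**Figure D1:**
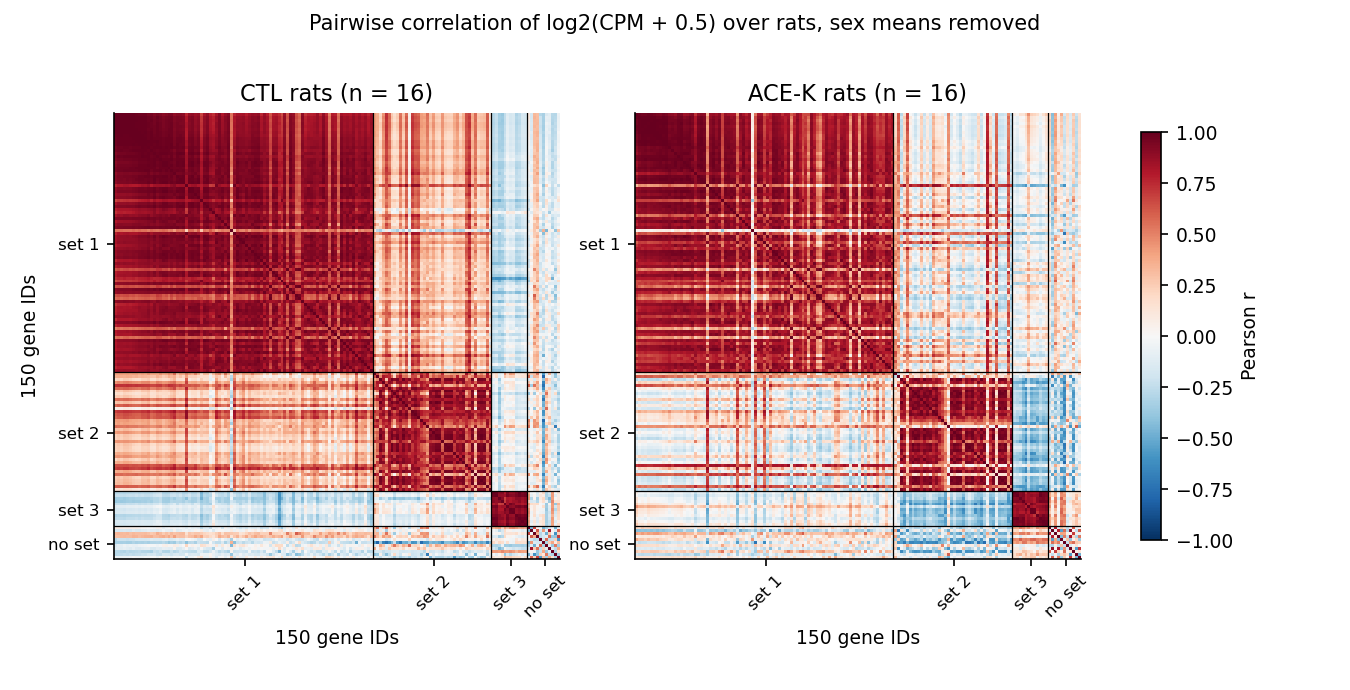
Pearson correlation between each pair of the 150 variable IDs over 16 CTL rats (left) and 16 ACE-K rats (right), on log2(CPM + 0.5) with sex means removed, with IDs ordered by set and by variance within a set and black lines between sets. The blocks of sets 1, 2 and 3, formed on the CTL rats, are also red in the ACE-K rats, with mean r of 0.755, 0.647 and 0.884.

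The sets differed in how they varied against each other. The level of a set, the mean log2 difference of its IDs from the CTL rats of the same sex, had a correlation of 0.45 between sets 1 and 2, -0.24 between sets 1 and 3 and -0.05 between sets 2 and 3 over CTL rats. Over ACE-K rats the same correlations were 0.11, 0.02 and -0.44. With so few rats these values describe the samples, and no difference between CTL and ACE-K rats was tested.

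The same selection was then made in the ACE-K rats alone. Of the variable IDs, 69.3% were also among the 150 most variable of the 10999 IDs with a mean of at least 5 CPM in ACE-K rats, where the background share is 1.36%. These were 53 IDs of set 1, 34 of set 2, 11 of set 3 and 6 of no set. Of the others, 20 had a mean below 5 CPM in ACE-K rats and so could not be ranked. All 130 that could be ranked were among the 1000 most variable IDs of ACE-K rats. Leaving out 1 ACE-K rat at a time gave shares of 58.7% to 72.7%, and the lowest was found without C102.

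Set 1 held 82.8% of the summed variance of the 150 IDs, and its leading ID was nearly absent from some hippocampi and abundant in others. ENSRNOG00000016275, the most variable ID of all (SD 4.89 on the log2 scale), had 0.359, 138 and 5363 CPM as its lowest, median and highest value in CTL males and 0.81, 322 and 1113 CPM in CTL females. Of the 16 CTL rats, 7 (C91, C95, C99, C105, C111, C117 and C121) lay at or below 2.46 CPM, which was 6 to 45 counts, and the other 9 lay at or above 275.6 CPM, with no rat between. In ACE-K males its lowest, median and highest values were 0.249, 176 and 3157 CPM and in ACE-K females 0.601, 5.97 and 2414 CPM. Again 7 of the 16 ACE-K rats lay below 5 CPM, but values of 10.4, 21.7 and 57.6 CPM (C116, C96 and C114) filled the gap seen in CTL rats. The CTL and ACE-K ranges overlapped in both sexes, with the highest value in a CTL rat among males and in an ACE-K rat among females.

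High and low hippocampi for this ID were spread unevenly over the library numbers. All 10 rats with more than 700 CPM of ENSRNOG00000016275, 6 CTL and 4 ACE-K, had library numbers of 14 or less, and no rat among the 18 with higher numbers exceeded 547.75 CPM. The 4 rats with the highest level of set 1 were C101, C93, C102 and C120, with library numbers 7, 10, 11 and 9. The level of set 1 had a Pearson correlation of -0.54 with the library number over the 16 CTL rats and -0.41 over the 16 ACE-K rats. When the linear trend on the library number was removed before clustering, all 87 IDs of set 1 and all 12 of set 3 stayed together, and 31 of the 40 of set 2.

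**Figure D2:**
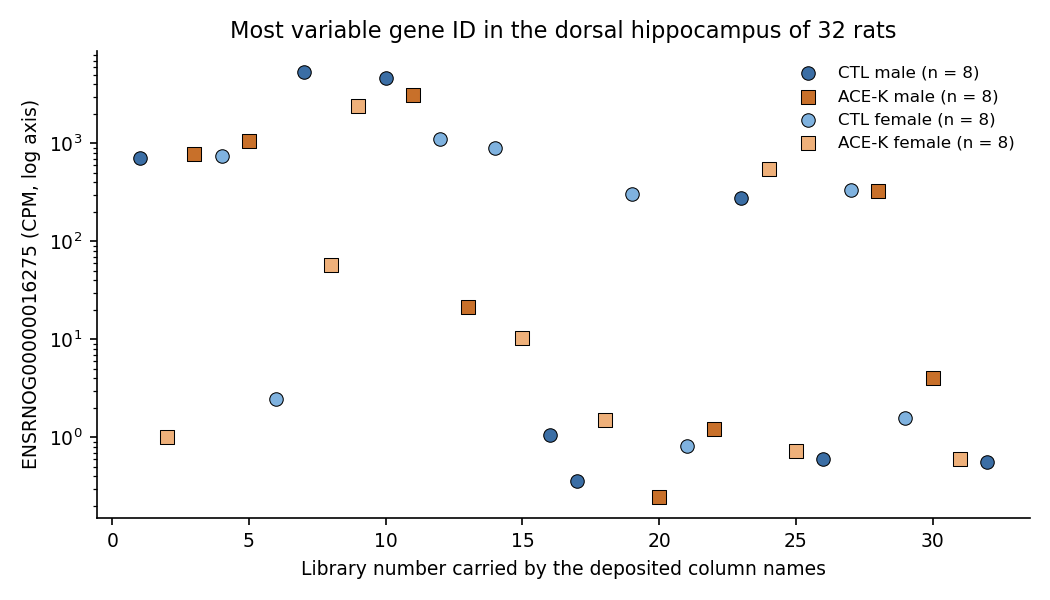
CPM of ENSRNOG00000016275, the ID of highest variance, in the HPCd of each rat (log axis) against the library number in the column names, with circles for CTL and squares for ACE-K rats, 8 per group. All 10 rats above 700 CPM have library numbers of 14 or less, and in either treatment 7 of 16 rats lie below 5 CPM.

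Most of the other IDs of set 1 rose linearly with the leading ID, and a few did so weakly. In the 9 CTL rats with at least 50 counts of both, ENSRNOG00000016275 had 15.0 to 19.8 times the counts of ENSRNOG00000026870, the second most variable ID, while its own level ranged from 275.6 to 5363 CPM. In the 7 ACE-K rats with as many counts, the ratio was 11.5 to 20.6, with a median of 16.3 in both treatments. When CPM was fitted as a straight line on CPM of the leading ID, the other 86 IDs of set 1 had a median Pearson correlation of 0.977 in CTL rats (range 0.527 to 0.999) and 0.959 in ACE-K rats (range 0.0849 to 0.999). It was above 0.9 for 75 IDs in CTL and for 57 in ACE-K rats. Their slopes, fitted separately, had a median of 6.06 CPM per 1000 CPM of the leading ID in CTL rats and 5.88 in ACE-K rats, and the median ratio of the ACE-K to the CTL slope was 1.01 (quartiles 0.945 and 1.13, range 0.177 to 1.68). The CTL lines rested much on C93 and C101. Without these 2 rats the median correlation was 0.818, with 29 IDs above 0.9 and a median slope of 6.56. The ACE-K lines were not refitted without C102 and C120, the ACE-K rats with the highest level of set 1. How far the ACE-K correlations and the slope ratio rest on C102 and C120 is therefore not known.

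The IDs at the centre of set 1 varied less than its leading ID. ENSRNOG00000009037, with the highest mean correlation within the set (0.920), had 3.35, 5.67 and 45.9 CPM as its lowest, median and highest value in CTL males, 3.83, 8.15 and 12.8 in CTL females, 3.33, 6.76 and 23.4 in ACE-K males and 3.46, 5.13 and 21.2 in ACE-K females. Its highest value was that of C101, the rat with the highest level of the whole set. Over the 80 IDs of set 1 with more than 3 counts in every CTL rat, the highest CTL rat had from 3.55 to 14932 times the CPM of the lowest, with a median of 6.94 times, and for 24 of them the ratio was over 10.

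Set 2 was led by an ID that was low in most rats and high in a few. ENSRNOG00000013829 had 0.299, 1.04 and 34.8 CPM as its lowest, median and highest value in CTL males and 0.585, 0.801 and 45.9 CPM in CTL females. The high CTL rats were C107 and C97, followed by C101 at 9.38 CPM, and the other 13 were at or below 1.62 CPM. In ACE-K rats, 15 of 16 were at or below 2.35 CPM and C102 had 10.9 CPM. Most of set 2 was graded rather than all or none. ENSRNOG00000014644, the most central ID of set 2, had 18.9, 61.4 and 126 CPM in CTL males, 35.5, 58.7 and 113.8 in CTL females, 31.4, 46.8 and 132 in ACE-K males and 21.4, 63.7 and 80.6 in ACE-K females, with all 4 groups overlapping. The rats with the highest level of set 2 were C98, C97, C107 and C102.

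Set 3 was the smallest set, and its mean correlation differed least between CTL and ACE-K rats. ENSRNOG00000036802, its most central ID, had 25.9, 48.9 and 62.0 CPM as its lowest, median and highest value in CTL males and 36.1, 73.4 and 142 CPM in CTL females. In ACE-K males it had 38.6, 69.7 and 110 CPM and in ACE-K females 23.9, 52.2 and 73.5 CPM, so that values lay higher than CTL in males and lower than CTL in females, with overlap in both. ENSRNOG00000062158, its most abundant ID at a CTL mean of 184 CPM, had 75.4, 144 and 217 CPM in CTL males, 80.1, 183 and 577 in CTL females, 75.3, 190 and 269 in ACE-K males and 65.3, 119.3 and 188 in ACE-K females. The highest levels of set 3 were those of the ACE-K males C100 and C96 and the CTL females C119 and C107, and the lowest was that of the ACE-K female C120.

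**Figure D3:**
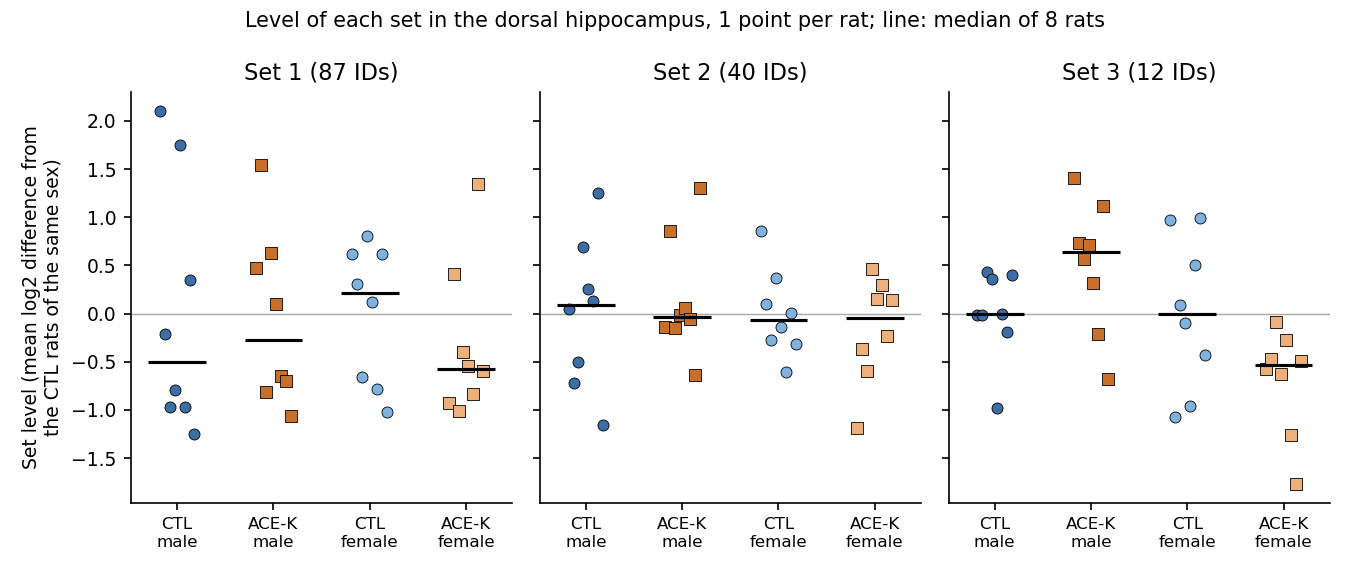
Level of sets 1, 2 and 3 in the HPCd of each rat, as the mean log2 difference of the set's IDs from the CTL rats of the same sex, with 1 point per rat, 8 rats per group and a line at the median. Set 1 spreads most, from -1.25 to 2.11, and set 3 has medians of 0.64 in ACE-K males and -0.54 in ACE-K females against -0.01 in CTL rats of each sex.

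The level of set 3 moved with the percent of reads on no gene. Their Pearson correlation was 0.845 over the 16 CTL rats and 0.795 over the 16 ACE-K rats, and 0.891 and 0.874 when the sex means of the percent were also removed. For sets 1 and 2 it was -0.18 and 0.18 in CTL rats and 0.06 and -0.49 in ACE-K rats. The percent of reads on no gene was likewise higher in ACE-K than in CTL males and lower in ACE-K than in CTL females, within the spread of the groups, with means of 21.6% ± 0.630 (SD, n = 8) in CTL males, 21.9% ± 0.787 (SD, n = 8) in ACE-K males, 22.2% ± 1.13 (SD, n = 8) in CTL females and 21.3% ± 0.651 (SD, n = 8) in ACE-K females. Both values come from the same reads, so whether one sets the other cannot be told apart in these files.

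**Figure D4:**
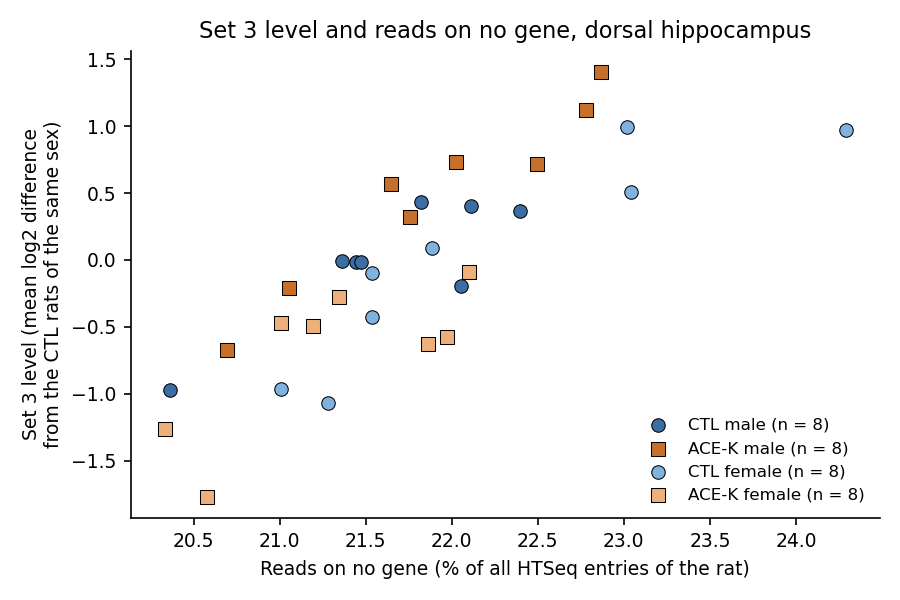
Level of set 3 in each HPCd sample against the percent of its reads that HTSeq placed on no gene, with circles for CTL and squares for ACE-K rats, 8 per group. The level rises with the percent in CTL (r = 0.845) and ACE-K rats (r = 0.795), and the CTL female C107 has the highest percent, 24.3%.

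ACE-K and CTL rats were then compared with edgeR's quasi-likelihood test on all IDs that passed the filter, 15704 in males and 15651 in females, with Benjamini-Hochberg adjustment over all of them. All 150 variable IDs were tested in either sex. The CTL rats of these tests are those whose spread chose the IDs. By edgeR, 804 IDs in males, 648 in females and 285 across sexes had an unadjusted p under 0.05. After adjustment 0 IDs passed at this threshold in each of the 3 tests, also with DESeq2, and the smallest adjusted p of a variable ID was 0.963 in males and 0.996 in females. The median SE of the log2 fold change in males was 0.373 for the 150 IDs against 0.0763 over all IDs tested. In females it was 0.261 against 0.0719. The CPM ranges of ACE-K and CTL rats overlapped for all 150 IDs in both sexes. A choice by wide spread in CTL rats favours both overlap and a large SE. Neither the overlap nor the lack of adjusted calls therefore shows that ACE-K had no effect on these IDs. Ranges that did not overlap were found for 0.0191% of the IDs tested in males and 0% in females.

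In males, 7 of the 150 IDs had an unadjusted p under 0.05, all 7 higher in ACE-K rats and all 7 of set 3, against a background of 3.16% of IDs tested that were higher at this threshold. ENSRNOG00000036802, described above, had a log2 fold change of 0.56 (SE 0.197, unadjusted p = 0.0104, adjusted p = 0.963, edgeR). ENSRNOG00000059660 had 8.56, 21.6 and 34.4 CPM as its lowest, median and highest value in CTL males and 15.1, 38.2 and 72.0 CPM in ACE-K males, a log2 fold change of 0.77 (SE 0.287, unadjusted p = 0.0158, adjusted p = 0.963, edgeR). All 12 IDs of set 3 had log2 fold changes above 0, from 0.36 to 0.85 with a median of 0.53. The median was -0.32 in set 1, 0.17 in set 2, -0.08 in the 11 IDs of no set and 0.0016 over all IDs tested.

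The male values of set 1 turned on 2 CTL rats, C93 and C101, which had the highest level of the set. Leaving out the highest CTL rats raises the fold change by construction, and the high ACE-K male C102 was kept, so the values without them show only this dependence. With C93 and C101 left out, the median log2 fold change of set 1 went from -0.32 to 0.52, and 10 of its IDs were higher in ACE-K males at an unadjusted p under 0.05 where 0 were with all rats. The background share higher at this threshold was then 3.39%. In the same fit set 3 had a median of 0.43, with 2 of its 12 IDs under 0.05.

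In females, 16 of the 150 IDs had an unadjusted p under 0.05 and all 16 were lower in ACE-K rats, against a background of 2.85%. They comprised all 12 IDs of set 3, 1 each of sets 1 and 2 and 2 of no set. ENSRNOG00000007830, of no set, had 6.03, 8.59 and 24.1 CPM as its lowest, median and highest value in CTL females and 3.33, 6.35 and 9.06 CPM in ACE-K females, a log2 fold change of -0.90 (SE 0.291, unadjusted p = 0.00615, adjusted p = 0.996, edgeR). ENSRNOG00000020295, of set 3, had 3.89, 7.78 and 14.05 CPM in CTL and 2.47, 4.57 and 6.86 CPM in ACE-K females, a log2 fold change of -0.77 (SE 0.253, unadjusted p = 0.00703, adjusted p = 0.996, edgeR). The 12 IDs of set 3 had log2 fold changes from -0.96 to -0.62 with a median of -0.77, while the medians of set 1, set 2 and all IDs tested were -0.09, -0.08 and 0.0029. Since these 12 IDs move together from rat to rat, they stand for fewer than 12 separate measurements.

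The female result depended on a few rats, chosen here for their set levels, so that leaving them out moves the fold changes in a known direction. Without the CTL females C107 and C119, which were highest in set 3, 0 IDs of set 3 and 2 variable IDs in all had an unadjusted p under 0.05, against a background of 0.805%, and the median of set 3 was -0.38. Without the ACE-K female C120, which was high in set 1 and lowest in set 3, 43 variable IDs were lower at this threshold, 31 of set 1, against 2.89%. The lowest count with 1 rat left out was 8, without C107 or without C119.

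**Figure D5:**
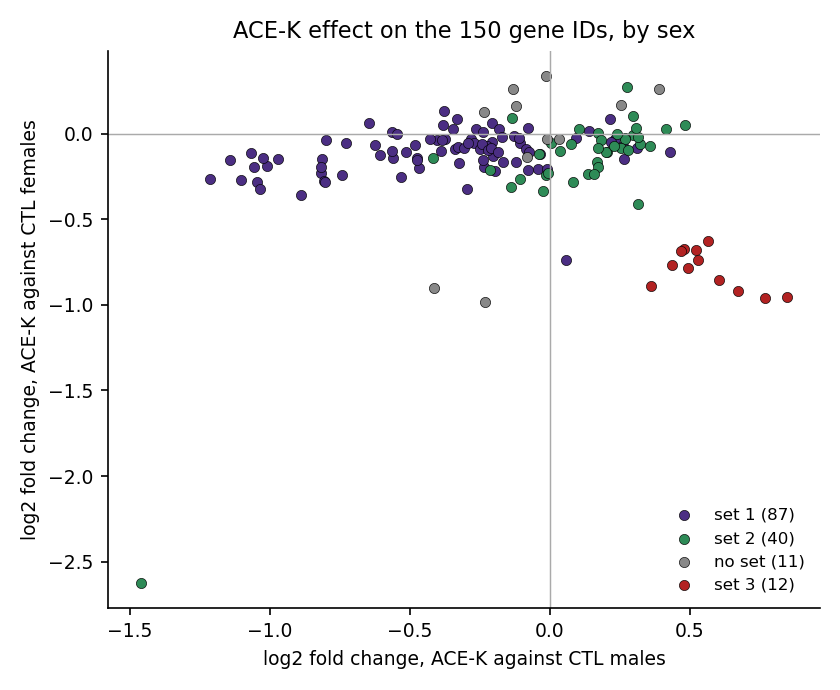
Log2 fold change of ACE-K against CTL rats in males (horizontal) and females (vertical) for each of the 150 variable IDs in the HPCd, coloured by set. The 12 IDs of set 3 lie at 0.36 to 0.85 in males and -0.96 to -0.62 in females, apart from the IDs of sets 1 and 2. In set 2, 1 ID, ENSRNOG00000013829, lies at -1.46 in males and -2.62 in females. These 2 values rest on the CTL males C97 and C101 and the CTL female C107, with the other CTL rats at or below 1.62 CPM.

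The difference between the sexes was tested as the Treatment x Sex interaction over 16012 IDs in all 4 groups, which uses the same CTL rats as the tests within a sex. All 12 IDs of set 3 and no other variable ID had an unadjusted p under 0.05, all negative, against a background of 5.12%, and the smallest adjusted p was 0.314 (edgeR). Their interaction coefficients ranged from -1.81 to -1.15 with a median of -1.26. With each of the 32 rats left out in turn, 11 or 12 of the 12 stayed under 0.05. Leaving out 1 rat at a time cannot show dependence on C107 and C119 together, on which the female values of set 3 depended. The interaction without both is not given here. Opposite effects of ACE-K in males and females were already known in these data when the IDs were chosen, so that this pattern is not independent support for them. Across sexes, 0 IDs of set 3 passed at an unadjusted p under 0.05, with a median of -0.11, and 3 variable IDs were lower against a background of 0.881%.

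When the percent of reads on no gene was added to the fits as a covariate, set 3 changed most. The interaction then had an unadjusted p under 0.05 in 1 of its 12 IDs, against a background of 2.43%, and its median went from -1.26 to -0.38. In females 0 of the 12 remained under 0.05, with a median of -0.11 and 3 variable IDs lower in all against 0.652%. In males 7 IDs of set 3 were under 0.05, with a median of 0.26 against 0.53 without the covariate and a background of 3.13%. Since this percent is measured on the same samples and differs between the groups, an effect of ACE-K on set 3 and a difference of the libraries in the percent cannot be told apart. Across sexes the median of set 3 changed sign with the covariate, from -0.11 to 0.11.

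The difference between males and females was tested over all 32 rats with treatment in the model. Sex means were removed from the variance that ranked the IDs, but the limit of 5 CPM on the CTL mean used both sexes. Of the 150 IDs, 22 reached this limit in CTL males only, 21 of them in set 1, and 4 in CTL females only. The counts by direction are therefore not independent of the selection. At an unadjusted p under 0.05, 25 variable IDs were lower and 2 higher in females, and 24 of the 25 were of set 1, of which 6 reached the limit in males only, against 7.2% of 16012 IDs that were lower. After adjustment 4 IDs passed, all of set 1 and all lower in females, against a background of 0.762%, and 1 of them reached the limit in males only. ENSRNOG00000017783 had 13.5, 22.4 and 56.7 CPM as its lowest, median and highest value in males and 7.67, 15.0 and 22.1 CPM in females, a log2 fold change of -0.93 (SE 0.179, adjusted p = 0.00321, edgeR). ENSRNOG00000020369 had 128, 242 and 693 CPM in males and 64.8, 132 and 241 CPM in females, a log2 fold change of -1.11 (SE 0.220, adjusted p = 0.00485, edgeR). Both sexes overlapped for either ID.

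The sex difference of set 1 as a whole depended on C93 and C101, the males with the highest level of the set. With all rats, 86 of its 87 IDs had log2 fold changes below 0 in females, with a median of -0.55, and without these 2 rats the median was -0.02. At an unadjusted p under 0.05, 12 of its IDs were then lower in place of 24. Without C93 and C101, 2 IDs passed after adjustment, which were ENSRNOG00000017783 at -0.74 (adjusted p = 0.0185, edgeR) and ENSRNOG00000020369 at -0.84 (adjusted p = 0.0269, edgeR). The shares over all IDs tested are not given here for this fit. Leaving out the males highest in the set makes its sex difference smaller by construction, so these values show only the dependence. Sets 2 and 3 had medians of 0.13 and 0.12 in the test of sex, and 1 of the IDs of set 2 and 0 of those of set 3 were lower in females at this threshold.

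Of the variable IDs of the HPCd, 85 had a mean of less than 1 count per rat in the ACB of the same rats. Of the 150, 7 had 0 counts in all 32 rats, which allows at most 3 counts over the whole region by counting error alone. The share over all IDs of a like HPCd level was not computed. Since the deposited gene counts per rat were far lower in the ACB than in the HPCd, these counts are not read as a trait of the list. ENSRNOG00000016275 had 1 ACB count in all. The mean CPM over all 32 ACB samples was divided by the mean over the 16 CTL hippocampi. The median ratio was 0.099 in set 1, 0.16 in set 2 and 0.47 in set 3, with C106 included. The IDs had to reach the CPM limit in CTL hippocampi and not in the ACB, which favours ratios below 1. No such ratio over all IDs was computed. ACB sums ranged from 213 to 370 counts per rat in set 1 and from 41 to 91 in set 2. The log2 CPM of a set's sum in the HPCd and in the ACB of the same rat had Pearson correlations of -0.06 (CTL) and 0.19 (ACE-K) in set 1, 0.40 and -0.29 in set 2 and 0.32 and 0.29 in set 3, with 16 rats each. Without C106 the ACE-K values were 0.17, -0.33 and 0.04 in sets 1, 2 and 3, with 15 rats. For the 85 IDs with a mean below 1 count, variation between ACB samples was not detectable at such low counts.

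In the ACB, 31 of the variable IDs passed the filter in males and 30 in females, and of these 2 and 3 had an unadjusted p under 0.05 for ACE-K against CTL, against backgrounds of 4.43% and 8.46%. None of them passed after adjustment, with smallest adjusted p values of 0.974 in males and 0.399 in females (edgeR). In males the smallest p was that of ENSRNOG00000062158 of set 3, with a log2 fold change of 1.47 (SE 0.430, unadjusted p = 0.00169, adjusted p = 0.974, edgeR). This value rested on rat C106, which had 465 counts of it where the other 31 rats had 17 to 71. Summed over set 3, there were 1000 ACB counts in C106 and 143 to 268 in the others. Most of the 1000 were of ENSRNOG00000062158 (465) and ENSRNOG00000059660 (354). C106 was also the deepest ACB sample, with 416869 gene counts against at most 387284. By CPM, 5 of the 12 IDs of set 3 were highest there. In the HPCd, C106 had the highest CPM of ENSRNOG00000062158 among the 16 males (269 CPM), and its level of set 3, 0.72, was in place 6 of the 32 rats. Without C106, 0 IDs of set 3 had an unadjusted p under 0.05 in ACB males and the median log2 fold change of its 7 tested IDs went from 0.46 to 0.16.

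IDs outside the list also followed the sets. Of the IDs with a mean of 0.5 to under 5 CPM in CTL rats, 136 of 3182 (4.27%) had a Pearson correlation of at least 0.8 with the level of set 1 in both CTL and ACE-K rats, against 21 (0.660%) with set 2 and 25 (0.786%) with set 3. Among the 10863 other IDs with a mean of at least 5 CPM, 72 (0.663%) followed set 1, 82 (0.755%) set 2 and 142 (1.31%) set 3 in both treatments. The share that followed set 1 was thus larger below the CPM limit of the list than above it. For set 2 the shares were close to each other, and for set 3 the share was larger above the limit. Those above the limit had an SD too low for the list. Another 12 of the 10863 IDs ran against set 2, with a correlation of -0.8 or less in both treatments. These counts are a description, with no test.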

How the data were processed

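Per the labels and the study's methods, the authors used FastQC for read quality, Trimmomatic for trimming, STAR for alignment to Rnor6.0 and HTSeq for counting. Versions, annotation release and strand setting are not given in the sources used here. The deposited tables hold raw counts per Ensembl gene ID, 1 column per rat, and 5 HTSeq summary rows of the HPCd were kept out of totals and tests.

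From these counts, CPM was computed on gene counts. The 150 IDs were clustered by average linkage on 1 minus Pearson's r, with the tree divided at 0.5 and sets of at least 5 IDs kept. Tests used edgeR 4.0.16 (R 4.3.3) with TMM on IDs that reached 5 normalized counts in 3 or more rats; DESeq2 1.42.0 was an alternative. The tests were checked on simulated counts, with changes planted in IDs drawn at random from all IDs kept by the filter. After adjustment, 81.3% of the planted changes were found in HPCd males and 90.4% in HPCd females. In the ACB 48.4% were found in males and 60.9% in females. Since these IDs were not chosen by spread, the check does not show how often a change in the 150 IDs would be found. Pairs of replicates differed by more than sampling noise (chi-square per degree of freedom of at least 4.07 in the HPCd and 1.58 in the ACB), so each rat counted as 1 replicate. IDs were named as the highest in variance or most central of a set, the nearest to significance (at most 2 in each direction, since no symbols are paired with the IDs) and others the text turns on; marker lists could not be applied. The variable IDs and lists were chosen with earlier results of these data known.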

Additional observations from a re-analysis of the deposited data

Results flagged for a closer look

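Within groups of 8 rats, set levels, ACB sums of the sets, the percent of reads on no gene and 7 named IDs were checked with Dixon's criterion. This made 56 groups in all, and a rate of about 1 in 20 by chance holds only for values not chosen by spread. The IDs and sets were chosen by their spread in the CTL rats and move together, so this rate does not apply to them. A flag on a CTL rat is partly built in by that choice. The level of set 3 in the CTL male C93 was -0.98, below the next rat at -0.19, and C93 was likewise lowest for ENSRNOG00000059660, at 3.18 on the log2(CPM + 0.5) scale against 4.29 in the next CTL male. For ENSRNOG00000013829 of set 2, the CTL female C107 stood at 5.54 on this scale against 1.08 in the next rat, and the ACE-K male C102 at 3.51 against 1.51. The ACB of the ACE-K male C106 had 1000 summed counts of set 3 where the next ACE-K male had 214. Most of the 1000 were of ENSRNOG00000062158 and ENSRNOG00000059660. In the test of the difference between the sexes, 12 of the 12 IDs of set 3 had an unadjusted Treatment x Sex p under 0.05 (edgeR), none of which passed adjustment.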

How the results depend on the processing

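The counts of IDs past adjustment were unchanged at 0 in HPCd males, females, across sexes and for the interaction under every alternative tried, and DESeq2, its size factors in edgeR, both other filters and the library number as a covariate moved no count of variable IDs at an unadjusted p under 0.05 by over 1.5 times. With 1 rat left out, these counts were 3 to 12 for males, 8 to 43 for females and 11 to 15 for the interaction. In males, 3 were found without C93, C96 or C100 and 12 without C98. The share over all IDs tested also moves between fits, in females from 2.85% lower with all rats to 0.805% without C107 and C119. A changed count is therefore not by itself a change particular to the variable IDs. Added after seeing the data, leaving out C93 and C101 gave 12 in males and 14 in the test of sex, leaving out C107 and C119 gave 2 in females, leaving out C120 gave 43, leaving out C106 gave 1 in ACB males, and the percent of reads on no gene gave 3 in females and 1 for the interaction; the cause was not tested. A mean of at least 1 CPM kept 63 and of at least 10 CPM 83 of the 150 IDs, since other IDs then enter or leave the ranking, and 94 stayed without C93 and C101. Leaving out 1 CTL rat kept 80.7% to 98.7%, the lowest without C101. Complete linkage gave 6 sets and kept 79 IDs of set 1, 18 of the 40 of set 2 and all 12 of set 3 together, and a division of the tree at 0.4 kept 86, 31 and 12. Without C102 and C120 the mean correlation of set 1 in ACE-K rats was 0.589. Replicate numbers within a group were given in accession order and do not pair CTL with ACE-K rats. Rat numbers link only the HPCd and ACB samples of the same rat. The low ACB counts limit single IDs.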
